A study of Mus musculus with 12 samples.

Results

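G protein-coupled receptors (GPCRs) for chemokines, lipid mediators, neuropeptides and adhesion ligands were taken from the genes that the deposited tables list as lower or higher in tdTomato+ than in tdTomato- group 2 innate lymphoid cells (ILC2s). Genes were chosen by symbol (Ccr, Cxcr, Ptger, Ptgir, Ptgdr, S1pr, Adora, Adrb, Adrg, Adgr, Calcrl, Ramp, numbered Gpr, P2r, Vipr, Nmur, Cysltr, Ltb4r and Lpar), which gave 30 of the 3439 listed genes. Of these 30 genes, 29 are protein coding and code for a receptor or, in the case of *Ramp1*, for a partner protein of a receptor, and *Gpr31c* is typed as a pseudogene.

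GPCRs sit in the cell membrane, bind a ligand outside the cell and pass the signal to G proteins inside it, until kinases and arrestins end the signal. ILC2s of the lung are guided by chemokine receptors and are stimulated or restrained by leukotrienes, prostaglandins and neuropeptides such as neuromedin U, vasoactive intestinal peptide and calcitonin gene-related peptide (CGRP). Adhesion GPCRs carry large extracellular parts and are best known from the nervous system and other solid tissues, although some of them are found on leukocytes.

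The cells were sorted from the lungs of male TIGIT-Cre-ERT2:Rosa26-LSL-tdTomato mice that had all received papain, a protease allergen given into the nose over a chronic course, and tamoxifen. The Cre recombinase was placed in the *Tigit* locus, so tdTomato marks cells that had expressed TIGIT while tamoxifen was present, and cells that expressed it at other times remain tdTomato-. Both populations came from the same genotype and treatment, and the sources used here give no age. The labels list 4 RNA-seq libraries of each population, and 2 ATAC-seq libraries of each that are not analysed here. The tables give 1 average log2 CPM (counts per 1e6 reads) for each gene over the libraries of the authors' fit, without single-library values. CPM is a share of a library, so it also moves with the other transcripts in it, and the highest average of all listed genes was 16.49 on the log2 scale (*Gm10800*, listed as higher). The authors' fold changes and test results, which the tables also hold, were not used. The depth, the spread between replicates and the level in each population are therefore not given here, and no test was made. Directions are those of the table in which a gene was listed. In such bulk samples, fewer cells of a type and less RNA per cell cannot be told apart.

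The ILC2 label was checked against marker genes. All 12 ILC2 markers looked up, including *Gata3*, *Il1rl1*, *Il7r* and *Rora*, were listed, each of them as lower, with a median average log2 CPM of 8.57. Lower genes made up 84.5% of all listed genes, and 13.2% of annotated protein-coding genes were in the lower table. Of 6 T cell markers, *Cd3g* was listed as lower, at 6.12. None of the 4 natural killer cell, 4 B cell, 5 macrophage, 4 eosinophil, 4 neutrophil or 5 epithelial and endothelial markers looked up was listed. These lists are short, and genes outside them that are known from epithelium or endothelium, such as *Muc5b* and *Vwf*, were listed as higher. A gene that is not listed missed a limit of the tables, the lowest average log2 CPM of which was 5.00, so absence does not show that a transcript was missing from the cells.

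The listed chemokine, lipid and neuropeptide receptor genes were all lower, whereas most of the listed adhesion receptor genes were higher. Of the 30 genes, 21 were listed as lower in tdTomato+ ILC2s and 9 as higher. Among all listed genes, 84.5% were lower and 15.5% higher. All 4 chemokine receptors, all 9 lipid receptors and all 4 genes of neuropeptide receptors or their partner were lower. Roles were given to the listed genes by hand. Placing *Gpr171* or *Gpr31c*, here among the other GPCRs, in another role would change these counts. The 5 other GPCRs were divided into 2 lower genes, among them *Gpr171*, and 3 higher genes (*Gpr26*, *Gpr158* and *Gpr31c*). Of the 8 adhesion receptors, *Adgre5* and *Adgrl1* were lower, and *Adgra3*, *Adgrb3*, *Adgrd1*, *Adgrg6*, *Adgrl3* and *Adgrv1* were higher. Leaving the adhesion receptors aside, 19 of 22 genes were lower. These directions are part of how the genes were chosen and are given as a description.

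Most annotated genes of these families were not listed at all. The GENCODE M21 annotation holds 170 protein-coding genes with such symbols, of which 29 were listed (17.1%), 21 as lower and 8 as higher. Among all 22028 annotated protein-coding genes, 15.5% were listed, 13.2% as lower and 2.3% as higher. The listed share of these families was thus near that of all annotated genes. Leukotriene receptors had 3 of 4 genes listed, and only *Ltb4r2* was missing. Of 8 genes of neuropeptide receptors and receptor activity modifying proteins (RAMPs), 4 were listed, as were 4 of 17 chemokine receptor genes and 2 of 7 prostanoid receptor genes, all as lower. Of 20 genes with symbols of purine receptors and channels (Adora and P2r), *P2ry10* was listed, although by role it is counted as a lipid receptor. Of 11 lysophospholipid receptor genes, *Lpar6* was listed. Of 27 adhesion receptor genes, 8 were listed, and of 73 numbered *Gpr* genes with a coding sequence 6 were.

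**Figure D1:**
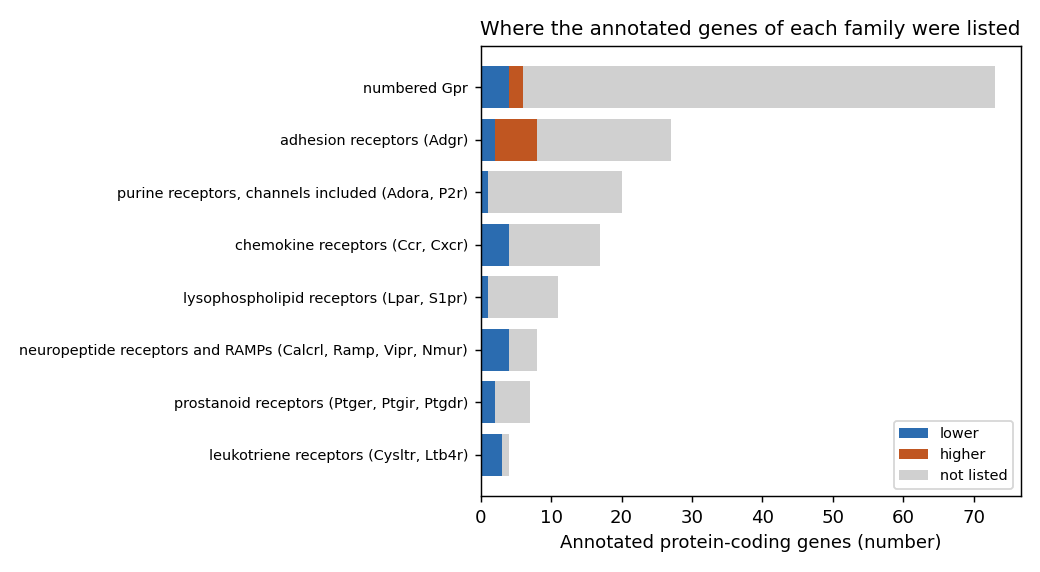
Number of annotated protein-coding genes (x axis) in the receptor families shown, grouped by symbol and divided by whether the deposited tables list them as lower or higher in tdTomato+ ILC2s or not at all. Adhesion receptors had 6 higher and 2 lower genes, numbered *Gpr* genes had 2 higher and 4 lower genes, and no other family shown had a higher gene.

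A list of 29 receptors that ILC2s are known or reported to use was looked up as a whole. Of these, 13 were listed as lower and none as higher, where 84.5% of all listed genes were lower and 13.2% of annotated protein-coding genes were in the lower table. The 13 were *Ccr2*, *Ccr8*, *Cxcr4*, *Cxcr6*, *Ptger4*, *Ptgir*, *Cysltr1*, *Cysltr2*, *Ltb4r1*, *Nmur1*, *Calcrl*, *Ramp1* and *Vipr2*, with a median average log2 CPM of 6.51. The other 16 (among them *Ccr4*, *Ccr6*, *Ccr9*, *Ptgdr*, *Ptgdr2*, *Ptger2*, *S1pr1*, *S1pr4*, *Ramp3*, *Vipr1*, *Adora2a*, *Adora2b*, *P2ry1*, *P2ry14* and *P2rx7*) were in neither table, so their direction is not known from the tables. *Ptgdr2* codes for CRTH2, the prostaglandin D receptor by which ILC2s are often recognised.

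Chemokine receptors, which steer cells toward sources of chemokine, had the highest levels per length. *Cxcr6*, the receptor for CXCL16, had an average of 140 CPM per kb of exon and an average log2 CPM of 8.08. *Ccr8*, the receptor for CCL1 in mice, had 128 CPM per kb and an average log2 CPM of 7.24. *Ccr2*, the receptor for CCL2, had the highest average log2 CPM of all 30 genes (8.95), which placed it at rank 85 of the 2906 lower genes, but on its longer exons (6.76 kb) this came to 73.0 CPM per kb. *Cxcr4*, the receptor for CXCL12, had 66.8 CPM per kb. All 4 genes were thus above the median of the lower genes, 15.4 CPM per kb. Because the spread between libraries is not given here, the order of neighbouring genes carries no error and is only that of the averages.

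Lipid receptors covered a wider range, from 8.30 to 52.9 CPM per kb. *P2ry10*, a receptor for lysophosphatidylserine, stood at the top with 52.9 CPM per kb. Next came the leukotriene receptors *Ltb4r1*, which binds leukotriene B, with 37.0 CPM per kb and *Cysltr2* with 31.7 CPM per kb. *Cysltr1*, the other receptor for cysteinyl leukotrienes, had 13.1 CPM per kb. *Gpr132*, which responds to oxidised lipids and lactate, had 29.3 CPM per kb. The prostaglandin receptors *Ptgir*, for prostacyclin, and *Ptger4*, for prostaglandin E, had 26.6 and 12.3 CPM per kb. *Gpr183*, the oxysterol receptor that guides lymphocytes within tissues, had 17.7 CPM per kb, and *Lpar6*, a receptor for lysophosphatidic acid, had 8.30 CPM per kb.

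Neuropeptide receptors lay close together, between 20.1 and 39.8 CPM per kb. *Calcrl* and *Ramp1*, whose proteins form the CGRP receptor together, were both listed as lower, with 22.5 and 39.8 CPM per kb. *Calca*, which codes for the ligand CGRP and calcitonin, was also listed as lower, with an average log2 CPM of 6.67 and 60.6 CPM per kb. *Nmur1*, the receptor for neuromedin U, had 26.9 CPM per kb, and *Vipr2*, which binds vasoactive intestinal peptide, had 20.1 CPM per kb. The ligand genes *Nmu* and *Vip* were not listed.

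The remaining lower genes included *Gpr171*, *Adgre5* and *Adgrl1*. *Gpr171*, a receptor with a peptide ligand, had 29.6 CPM per kb. *Adgre5* codes for CD97, an adhesion receptor of leukocytes, and had 27.6 CPM per kb. *Adgrl1* codes for a latrophilin and had 8.06 CPM per kb, the lowest of the 21 lower genes.

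The higher genes had low levels per length, from 2.96 CPM per kb in *Gpr26* to 7.10 CPM per kb in *Gpr31c*. Among the adhesion receptors, *Adgrv1*, the very large receptor of hair cell stereocilia, had 5.93 CPM per kb, and *Adgrb3*, a synaptic receptor, had 5.14 CPM per kb. *Adgra3* had 4.37, *Adgrd1* 4.25 and *Adgrg6*, which is needed for myelination by Schwann cells, 4.07 CPM per kb. *Adgrl3*, a latrophilin of synapses, had 3.15 CPM per kb. *Gpr158*, a receptor of neurons that responds to glycine, had 6.74 CPM per kb. The lower and the higher genes did not overlap in CPM per kb. In all listed genes with a known length, 96.8% of the lower genes lay above the highest of the 9 higher receptor genes, and 92.3% of the higher genes lay below the lowest of the 21 lower receptor genes. This separation was therefore shared with the listed genes as a whole. In CPM without regard to length the ranges overlapped, with 44.8 to 494 CPM for the lower and 32.9 to 147 CPM for the higher receptor genes.

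**Figure D2:**
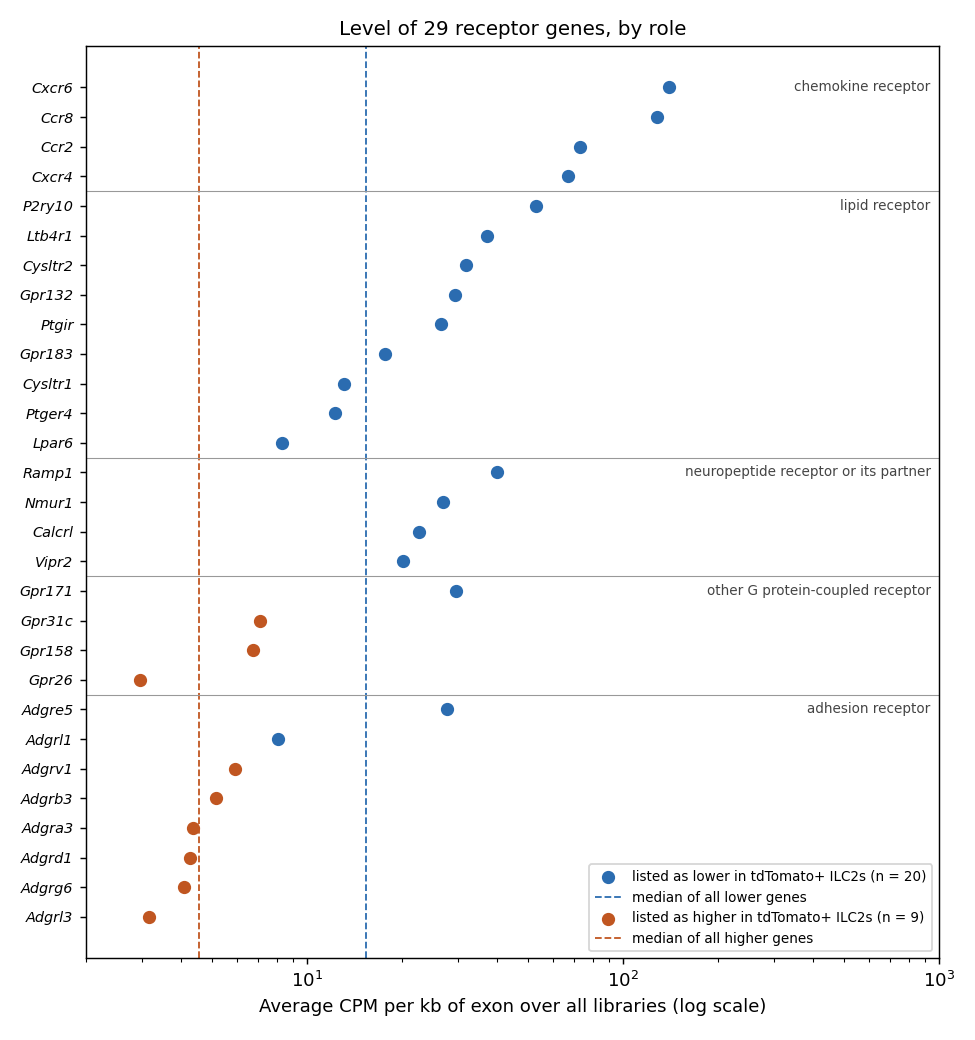
Average CPM per kb of exon over all libraries (x axis, log scale) for 29 of the 30 genes, grouped by role, with 1 point a gene and no error because single libraries are not given. The 20 lower genes shown sit between 8.06 and 140 CPM per kb and the 9 higher genes between 2.96 and 7.10, around the medians of all lower (15.4) and all higher genes (dashed lines).

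Close to the lower limit of the tables lay *Gpr31c*, *Gpr26*, *Adgrd1* and *Adgra3*, with average log2 CPM values of 5.04, 5.10, 5.14 and 5.15. Among the lower genes, *Lpar6* and *Nmur1* were the nearest to it, with 5.49 and 5.51. Of the 30 genes, 17 lower and 2 higher genes (*Adgrv1* and *Adgrb3*) had an average log2 CPM over 6.

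The lower and higher receptor genes differed in their build. GPCR genes often hold their whole coding sequence in 1 exon, and this was so for 9 of the 21 lower receptor genes, against 3.79% of all lower genes. None of the 8 higher protein-coding receptor genes had 1 coding exon, which was rare among all higher genes too (5.33%). The longest coding sequence of the lower receptor genes had a median of 365 codons, below the median of 511 codons for all lower genes. That of the higher receptor genes had a median of 1255 codons, against 1089 for all higher protein-coding genes. *Adgrv1* was the longest, with 6298 codons in 90 coding exons, and *Ramp1* the shortest, with 148 codons.

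Exonic length, the union of all annotated exons, had a median of 3.02 kb in the lower and 11.6 kb in the higher receptor genes. Of the 9 higher receptor genes, 5 had more exonic sequence than any of the 21 lower receptor genes. Such a length was found in 69% of all higher genes and 20.6% of all lower genes. The span on the genome, introns included, had a median of 17.4 kb in the lower and 143 kb in the higher receptor genes, and 7 of the 9 higher genes spanned more than every lower one (94.8 kb at most, *Calcrl*). Among all listed genes, 62.2% of the higher and 13.5% of the lower genes spanned more than that. *Gpr26* (27.9 kb) and *Gpr31c* (4.64 kb) were the exceptions among the higher receptor genes. The long spans belonged to *Adgrl3* (805 kb), *Adgrb3* (762 kb), *Adgrv1* (538 kb) and *Gpr158* (463 kb).

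The adhesion receptor genes overlapped in exonic length whatever their direction. The 6 higher adhesion receptor genes had a median exonic length of 15.0 kb (8.11 to 24.9 kb), the 19 that were not listed one of 5.28 kb (2.70 to 14.2 kb), and *Adgre5* and *Adgrl1* had 3.76 and 8.59 kb. The lower gene *Adgrl1* was thus longer in exons than the higher genes *Adgra3* (8.11 kb) and *Adgrd1* (8.32 kb), and the ranges of the higher and the unlisted genes overlapped as well. Across the 9 higher receptor genes, the average log2 CPM rose with exonic length (Spearman's rho 0.80), and across the 532 higher genes with a known length rho was 0.56. Across the 21 lower receptor genes rho was -0.06, whereas it was 0.41 across 2905 lower genes. These correlations are across genes that share the same libraries and the same lower limit on the average level, and genes are not independent replicates.

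**Figure D3:**
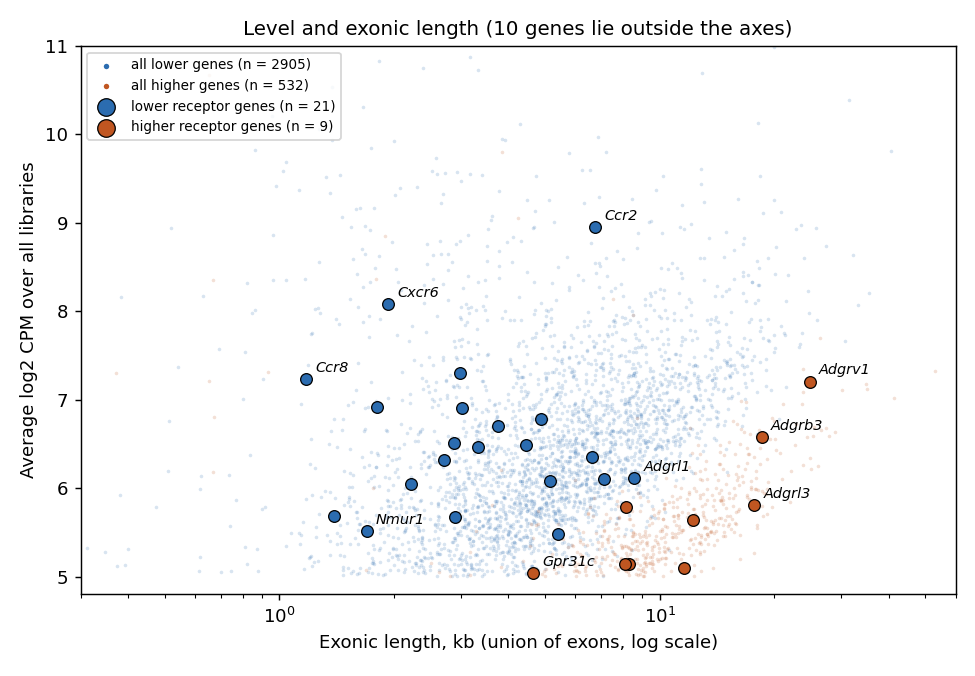
Average log2 CPM over all libraries (y axis) against exonic length (x axis, log scale) for all listed genes (small points) and the 30 receptor genes (outlined points), with the 10 genes beyond the axes left out. The higher receptor genes lie along the lower right edge, where level rose with length (rho 0.80, n = 9), and the lower receptor genes show no such slope (rho -0.06, n = 21).

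Promoter windows are shown because lower and higher receptor genes differed in CpG dinucleotides, the sites at which DNA is methylated. Windows of 300 bases, from 250 before to 50 after a start site, were found in RefSeq (GRCm38.p6) for 23 of the 30 genes, with more than 1 window for *Nmur1*, *P2ry10* and *Adgrl3*. Below are 2 CpG-poor windows of lower chemokine receptors, the CpG-rich window of a lower prostaglandin receptor as an exception, and that of a higher adhesion receptor, each read 5′ to 3′ along the gene with CpG in capitals. They lie at chr9:123806227-123806526 (*Cxcr6*, plus strand), chr9:120091883-120092182 (*Ccr8*, plus strand), chr15:5244138-5244437 (*Ptger4*, minus strand) and chr10:14544987-14545286 (*Adgrg6*, minus strand).
Cxcr6: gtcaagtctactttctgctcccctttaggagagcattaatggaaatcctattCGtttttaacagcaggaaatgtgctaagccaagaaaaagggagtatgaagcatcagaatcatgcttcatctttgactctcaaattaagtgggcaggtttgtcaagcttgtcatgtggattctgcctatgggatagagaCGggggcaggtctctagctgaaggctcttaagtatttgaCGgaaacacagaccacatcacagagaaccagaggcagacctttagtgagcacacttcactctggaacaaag
Ccr8: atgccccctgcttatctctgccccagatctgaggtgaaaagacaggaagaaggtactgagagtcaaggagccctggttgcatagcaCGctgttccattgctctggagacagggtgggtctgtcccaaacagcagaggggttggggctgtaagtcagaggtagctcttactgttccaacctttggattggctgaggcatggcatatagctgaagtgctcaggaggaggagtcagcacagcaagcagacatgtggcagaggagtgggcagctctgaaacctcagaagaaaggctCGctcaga
Ptger4: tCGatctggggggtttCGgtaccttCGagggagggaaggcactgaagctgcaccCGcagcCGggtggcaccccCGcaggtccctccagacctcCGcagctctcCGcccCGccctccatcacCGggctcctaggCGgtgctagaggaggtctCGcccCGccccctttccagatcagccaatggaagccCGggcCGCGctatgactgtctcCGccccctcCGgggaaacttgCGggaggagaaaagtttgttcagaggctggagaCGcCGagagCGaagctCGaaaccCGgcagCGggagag
Adgrg6: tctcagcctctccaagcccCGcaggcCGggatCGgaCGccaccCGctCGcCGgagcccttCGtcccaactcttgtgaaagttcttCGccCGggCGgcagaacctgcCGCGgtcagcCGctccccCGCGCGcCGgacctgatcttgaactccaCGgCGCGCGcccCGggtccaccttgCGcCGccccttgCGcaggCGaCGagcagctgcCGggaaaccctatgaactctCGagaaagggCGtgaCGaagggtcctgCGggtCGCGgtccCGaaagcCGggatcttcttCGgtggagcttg

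The *Cxcr6* window held 3 CpG, that of *Ccr8* 2, that of *Ptger4* 25 and that of *Adgrg6* 38. The 19 windows of 17 lower receptor genes had a median of 5 CpG (1 to 28), whereas the 3029 windows of all lower genes had a median of 23. The 8 windows of 6 higher receptor genes had a median of 20.5 CpG (14 to 40), whereas the 529 windows of all higher genes had a median of 8. All 32851 windows had a median of 7. The lower receptor genes thus had fewer CpG, and the higher receptor genes more, than the medians of the tables that list them. Among the lower receptor genes, *Adgrl1* (28 CpG), *Ptger4* (25), *Cxcr4* (20) and *Vipr2* (18) were within the range of the higher ones. *Adgrl1* was the only lower adhesion receptor gene with a window, and every higher window except that of *Gpr158* belonged to an adhesion receptor. Direction and receptor family can therefore not be told apart here. Genes without a window included *Adgrd1*, *Adgre5*, *Cysltr1*, *Gpr26*, *Gpr31c* and *Gpr171*.

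**Figure D4:**
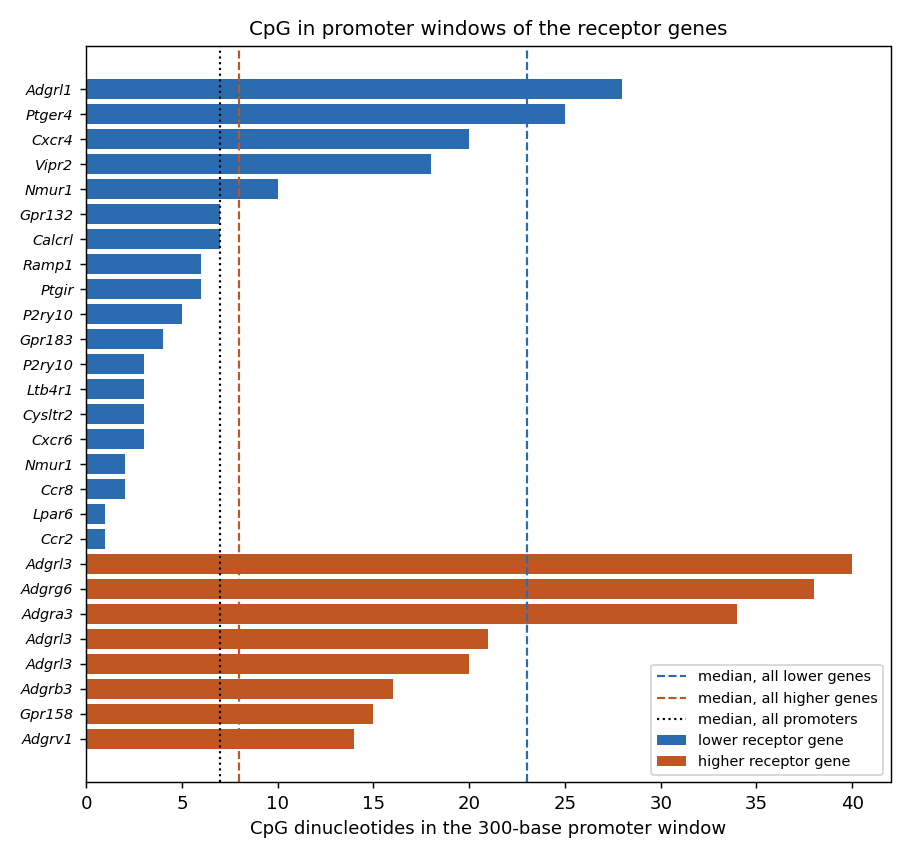
Number of CpG dinucleotides (x axis) in each 300-base promoter window of the receptor genes, with 1 bar a window. Windows of lower genes hold 1 to 28 CpG and those of higher genes 14 to 40, against medians (lines) of 23 for all lower genes, 8 for all higher genes and 7 for all promoters.

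Binding motifs of factor families were searched in the same windows on both strands. The letters AGATAA, which sites of the factor GATA3 often hold, were in 3 of 19 windows of the lower receptor genes (*Ccr2*, *Ccr8* and *P2ry10*) and in 0 of 8 of the higher ones. They were in 5.78% of the windows of all lower genes, 11.2% of those of all higher genes and 11.2% of all windows. The RUNX motif TGTGGTT was in 2 of 19 (*Gpr132* and *P2ry10*) and 0 of 8 windows. It was in 3.43% of the windows of all lower genes, 4.54% of those of all higher genes and 5.27% of all windows. The ETS motif CCGGAAGT was in 0 of 19 and 0 of 8 windows. It was in 7.89% of the windows of all lower genes, 1.32% of those of all higher genes and 3.89% of all windows. The TATA box letters TATAAA were in the window of *Cxcr4* and in 1 of the windows of *Adgrl3*. They were in 7.23% of the windows of all lower genes, 14.6% of those of all higher genes and 13.6% of all windows. A match describes letters and not a bound site, and no match says only that these letters are not in this window.

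Several of the lower genes were neighbours on the genome, by GRCm38 positions. *Cxcr6* (chr9:123806475-123811760) and *Ccr2* (chr9:124101950-124113557) lie 290 kb apart in a cluster of chemokine receptor genes in which *Ccr9*, *Ccr1*, *Ccr1l1* and *Ccr3* were not listed. *Ccr9* is 22.1 kb from *Cxcr6*. *Cysltr2* and *Lpar6* are 189 kb apart on chromosome 14, and *P2ry10* and *Cysltr1* are 485 kb apart on chromosome X. *Gpr171* lies 12.0 kb from *P2ry14*, which was not listed, as were *P2ry12* and *P2ry13* nearby. *Ltb4r1* lies 0.82 kb from the unlisted *Ltb4r2*. *Adgre5* and *Adgrl1*, the 2 lower adhesion receptor genes, lie 159 kb apart on chromosome 8, and the unlisted *Ptger1* is 50.5 kb from *Adgre5*.

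Reads can be divided between similar genes, so near relatives were looked up by sequence. The pseudogene *Gpr31c* (chr17:13341241-13345880) was 99.4% identical to *Gpr31b* over 807 bases, so its listing is uncertain. *P2ry10* was 82.6% identical to *P2ry10b* over 972 bases. Exons of *Adgre5* overlapped those of *Ddx39* on the opposite strand over 23.8% of their length, those of *Ptger4* overlapped *Gm15937* over 15.3% and those of *Adgrl1* overlapped *Gm10644* over 12.9%. Smaller overlaps on the opposite strand occurred in both directions, as in the lower gene *Lpar6* (7.56%) and the higher genes *Adgrl3* (8.91%) and *Gpr158* (7.36%). The libraries were made with a stranded kit, but whether strand was used in counting is not stated, so for these genes reads of the antisense partner may be included.

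Genes that act downstream of these receptors were looked up as well. Of 50 genes of G protein signalling looked up, 31 were lower, 1 was higher and 18 were not listed, with a median average log2 CPM of 6.82. Lower genes made up 84.5% of all listed genes, and 13.2% of all annotated protein-coding genes were in the lower table, so the direction of the listed genes was mostly that of the tables as a whole. Lower genes included the G protein subunits *Gnai2* (average log2 CPM 8.38), through which chemokine receptors signal, *Gnb1* (7.64), *Gna13* (7.29), *Gnai3* (6.78) and *Gnas* (6.30), which couples receptors to cyclic AMP. The regulators of G protein signalling *Rgs1* and *Rgs2*, which shorten the signal, had the highest levels of the list, with 9.29 and 9.07. The receptor kinases *Grk2* (7.06) and *Grk6* (5.98) and the arrestins *Arrb1* (6.61) and *Arrb2* (6.58) were lower as well. Along the cyclic AMP pathway, *Adcy7* (6.99), *Prkar1a* (7.91), *Prkacb* (7.42), *Prkaca* (5.27), *Creb1* (7.33), *Crem* (6.50), *Pde3b* (6.86) and *Pde7a* (6.87) were lower. Phospholipase C genes were divided, with *Plcb2* (5.89), *Plcb3* (6.08) and *Plcb4* (7.21) lower and *Plcb1* (5.79) higher.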

How the data were processed

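RNA-seq libraries of sorted tdTomato- and tdTomato+ lung ILC2s were processed by the authors, who aligned paired-end reads with STAR, counted them with featureCounts on an Ensembl annotation and fitted edgeR. The methods name GRCm39 and the labels mm10, and tool versions, strand setting and library normalization are not given in the sources used here. The deposited tables give the average log2 CPM of each gene, the authors' mean over libraries, used here. They also hold the authors' log fold change, likelihood ratio, p-value and false discovery rate, which were not used. No column holds values of a single library, so the planned limma test, its settings and depth or interval estimates were not possible, and n of the averages is unknown. The number of unused columns of per-sample values is 0.

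CPM was computed as the antilog of the average. Lengths, positions and coding sequences (the longest of a gene) came from GENCODE M21 on GRCm38 by Ensembl identifier, found for 2905 lower and 532 higher genes and for all 30 receptor genes. Relatives were sought with blastn 2.17.0 against all transcripts. Python 3.11.15, pandas 2.3.3 and scipy 1.17.1 were used, and the length and motif steps were tested on simulated data. All genes of the rule were to be named, but a few items are not reported here by name, although they remain in the counts. Members and lists were chosen with earlier results of these data known.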

Additional observations from a re-analysis of the deposited data

How the results depend on the processing

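The values used here are averages only, so depth and replicate error cannot limit or support any single value here. No paired analysis was possible because no value of a single library is given, and for the same reason leave-one-out, pseudocount and low-value alternatives were not run. The counts of 21 lower and 9 higher genes became 20 and 9 without *Ramp1*, and 21 and 8 without the pseudogene, an alternative chosen after seeing the data. With an average log2 CPM over 6, 17 lower genes and 2 higher genes remained. The median average log2 CPM of the lower genes (6.47) was 6.41 without *Ramp1* and 6.51 with a level over 6, and it did not move without the adhesion receptors or the pseudogene. That of the higher genes (5.64) was 6.89 with a level over 6, 5.10 without the adhesion receptors and 5.71 without the pseudogene. The median coding length of the lower genes (365 codons) was 369 without *Ramp1* and 359 without adhesion receptors, and that of the higher genes (1255 codons) was 768.5 without adhesion receptors, which left *Gpr26* and *Gpr158* alone. In kb, the median coding length was 1.10 for lower and 3.77 for higher genes, the median span 17.4 and 143, and the median exonic length, added after seeing the data, 3.02 and 11.6. The higher genes were longer by each of these lengths.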

Other observations

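Genes that make ligands of these receptors were looked up as well. Of 21 such genes, 4 were listed, all as lower in tdTomato+ ILC2s, and 17 were not listed. Among all listed genes 84.5% were lower, and 13.2% of annotated protein-coding genes were in the lower table, so this count is near that of the tables as a whole. Apart from *Calca*, described above, these were *Alox5*, which starts leukotriene synthesis, with an average log2 CPM of 7.14, *Lta4h*, whose enzyme makes leukotriene B, with 6.51, and *Ptges3*, with 5.89. *Alox5ap*, *Ltc4s*, *Hpgds*, *Ptgs1* and *Ptgs2* were not listed, nor were the chemokine genes *Cxcl12*, *Cxcl16*, *Ccl1*, *Ccl2*, *Ccl5*, *Ccl17* and *Ccl22*.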
